A study of Mus musculus with 36 samples.

Results

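Kidneys of wild-type C57BL/6 mice were compared between postnatal day 3 (P3) and postnatal day 12 (P12), the interval in which the mouse kidney stops forming nephrons and takes up adult tubular work. The comparison holds 6 of the 36 libraries of a study of 2 cystic kidney disease genes, Pkd1 and Pkhd1: 3 wild-type libraries of P3 and 3 of P12, each matched to its column of raw counts by the number in its sample title. Each library was made from total RNA of whole kidney. The study also holds 3 wild-type libraries of the day of birth (P0) and the same 3 ages of mice homozygous for the Pkd1 RC allele (Pkd1-RC/RC), of Pkhd1-/- mice and of digenic mice with both, again with 3 libraries per group and on the same strain. Their values are given below only where the wild-type change is set beside them. All 36 libraries were fitted together, however. Each standard error and p-value of the wild-type comparison therefore rests on a spread estimated from all of them. No allele or treatment beyond the genotype is named in the labels. The labels do not say that each library is a separate mouse, so p-values measure the spread between libraries of a group, pooled over all groups.

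The mouse kidney grows by branching of the ureteric bud, whose tips instruct a cap of nephron progenitor cells to turn into epithelium, segment into podocyte, proximal tubule, loop of Henle and distal tubule, and join the collecting duct. Rodent nephron formation continues into the first days after birth and ends when the progenitor pool is used up. The segments then acquire the transporters, enzymes and channels with which the kidney recovers filtered solutes, makes glucose, concentrates urine and balances acid.

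Total counts ran from 53782737 to 72532502 in the P3 libraries and from 66688739 to 80789299 in the P12 libraries, so counting error is small for all but the lowest genes. The first principal component of the 6 libraries held 65.7% of the variance and separated the ages. The second held 16.4%, and on it P3 replicate 2 stood apart, at -42.2 against 25.5 and 25.7 for the other P3 libraries. That library also carried more RNA of neighbouring tissue and blood: the summed level of 12 adrenal genes was 62.8 on the scale of counts relative to the library total (CPM) against 23.5 and 23.4, that of 9 erythroid genes 1333 against 549 and 544, and that of 8 fat genes 227 against 140 and 134. The adrenal medulla enzyme gene Dbh had 789 counts there and 1 and 0 in the other P3 libraries. P12 replicate 3 also held such RNA, with 366 Dbh counts against 3 and 9 in the other P12 libraries. Its sum over the adrenal genes, 25.9 CPM, was near the 21.9 and 25.3 CPM of those libraries. In P3 replicate 2 the 29 proximal tubule transport genes summed to 3423 CPM against 4448 and 4937. Counts of changed genes are therefore also given without P3 replicate 2 where they move by more than 1.5 times. By the column headers P3 holds 2 male and 1 female library, and so does P12. The label of whole kidney held in every library: markers of proximal tubule (Lrp2, lowest 519 CPM), thick ascending limb (Umod, lowest 457 CPM), distal convoluted tubule (Slc12a3, lowest 97.7 CPM), principal cells (Aqp2, lowest 228 CPM), podocytes (Nphs1, lowest 40.5 CPM) and endothelium (Pecam1, lowest 137 CPM) were all detected. The nephron progenitor marker Six2 was detected at P3 and close to 0 at P12.

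Of 18049 genes tested, 6413 (35.5%) differed between P3 and P12, by the quasi-likelihood test of edgeR with Benjamini-Hochberg adjustment over the whole table and a threshold of 0.05. At P12 3350 genes (18.6%) were higher and 3063 (17.0%) were lower, and a change of at least 2-fold was fitted for 844 of the higher and 930 of the lower genes. The median change over all genes was 0.03 on the log2 scale, against which the gene lists below are read. Since so many genes were called, the count of a list is read beside these shares and its direction and size beside this median. A whole-kidney library cannot tell fewer cells of a type apart from less RNA of a gene per cell.

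Among genes whose log2 CPM averaged 3 or more over the 6 libraries, the largest rise was that of Egf, which encodes epidermal growth factor made in the distal nephron. Egf stood at 12.6, 7.49 and 20.9 CPM at P3 and at 301, 276 and 526 CPM at P12, a log2 change of 4.75 ± 0.372 (SE, edgeR adjusted p = 1.36e-10). Folh1, a peptidase of the brush border, went from 2.55, 1.34 and 2.32 CPM to 46.3, 47.8 and 69.6 CPM (4.72 ± 0.448). Klk1, tissue kallikrein, rose from 48.0, 69.9 and 47.0 CPM to 671, 901 and 850.0 CPM (3.88 ± 0.403), and its neighbour of the same gene family Klk1b5 by 4.21 ± 0.448, although reads of such close relatives may be split between them. Dio1, which activates thyroid hormone, rose by 4.10 ± 0.508, with 2.88, 3.78 and 5.74 CPM at P3 and 56.5, 72.7 and 84.7 CPM at P12. Further rises of this rank were those of the enzymes Aldh8a1 (3.47), Ptgds (3.31), Kmo (3.07) and Aass (2.81), of the vitamin D binding protein Gc (2.94), of the amino acid transporter Slc7a13 (2.84) and of the prolactin receptor Prlr (2.69), all as log2 changes. Genes whose libraries overlapped between the ages were left out of this choice.

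The 12 largest falls at the same minimum level were in genes of the embryonic kidney. They were the growth-related RNA H19 (-4.71) with the microRNA gene inside it, Mir675 (-4.71), the transcription factor genes Uncx (-4.66), Sox11 (-3.44) and Hey1 (-2.94), the growth factor Igf2 (-4.13), the ureteric bud receptor genes Ret (-3.71) and Gfra1 (-3.69), and Fibin (-3.37), the matrix fibrillin Fbn2 (-3.23), the cadherin Cdh4 (-3.07) and the growth factor Ptn (-2.75), as log2 changes. The same rule against overlap applied to them.

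**Figure D1:**
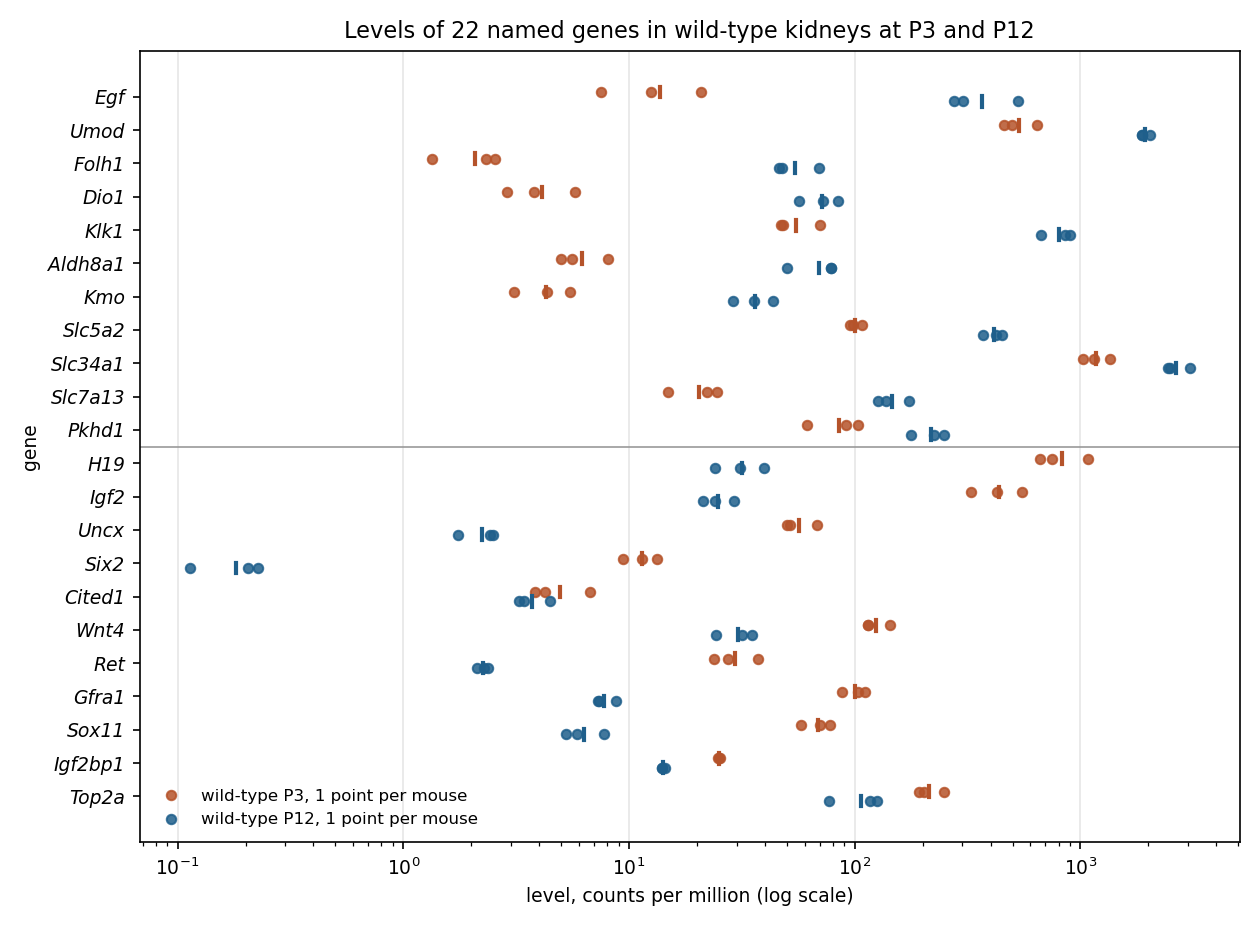
Level of 22 genes in each wild-type library, in CPM on a log axis, with 1 point per library at P3 and at P12. Egf rises from between 7.49 and 20.9 to between 276 and 526 CPM, H19 falls from between 661 and 1078 to between 24.1 and 39.7 CPM, and Cited1 overlaps between the ages.

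Most nephron progenitor genes fell from P3 to P12, at unequal times and by unequal amounts. Of 16 genes that mark or maintain the progenitor cap, 10 fell and 2 rose, and the median log2 change was -0.96. Six2, the transcription factor that keeps progenitors undifferentiated, stood at 11.5, 13.3 and 9.41 CPM at P3 and at 0.113, 0.205 and 0.228 CPM at P12 (-5.96 ± 0.385, edgeR adjusted p = 1.6e-12). At P0 its mean had been 45.0 CPM, so that most of its level was gone before P3. Gdnf, the signal from progenitors to the ureteric bud, fell from 13.6, 10.3 and 9.10 CPM to 0.541, 0.441 and 0.759 CPM (-4.23 ± 0.32). Uncx fell from 49.9, 68.0 and 51.5 CPM to 2.50, 1.75 and 2.43 CPM, and its mean had been 43.0 CPM at P0, no higher than at P3. Eya1, a partner of Six2, fell by 4.29 and Spock2 by 2.54 on the log2 scale. Cited1, which marks the earliest progenitors, was already low at P3: its mean was 29.2 CPM at P0 and 4.94 CPM at P3, and its 3.84, 6.73 and 4.26 CPM at P3 overlapped the 3.27, 3.42 and 4.45 CPM at P12 (-0.41 ± 0.277, edgeR adjusted p = 0.261). Crym (0.80) and Meox1 (0.48) rose, and the call of Meox1 was lost without P12 replicate 3 or any 1 of the P3 libraries. Itga8 (0.22), Hoxa10 (-0.03) and Dpf3 (0.32) did not pass the test.

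Genes of the nephrons in formation fell almost as one list. Of 17 genes of the pretubular aggregate and the S-shaped body, 15 fell and none rose, with a median of -1.06, and the remaining Cdh6 (0.04) and Sox4 (0.07) did not pass the test. Fgf8, a growth factor of the renal vesicle, had 372, 543 and 498 counts in the P3 libraries and 0, 0 and 2 in the P12 libraries. Summed per total count, its level was 853 times higher at P3, with a 95% interval of 236 to 7050 that covers counting error only. Hes5, a Notch target, had 104, 183 and 145 counts at P3 and 4, 0 and 8 at P12, a ratio of 43.5 (24.6 to 84.8 from counting error). Lhx1, which patterns the early nephron, stood at 83.7, 77.1 and 80.9 CPM at P3 and at 12.7, 11.1 and 12.9 CPM at P12 (-2.72 ± 0.182). Wnt4, the trigger of epithelial conversion, fell from 115, 143 and 115 CPM to 31.6, 35.2 and 24.3 CPM (-2.04 ± 0.181). The levels within each age lay close together for these genes, and no P3 library reached a P12 library. Pax2 (-1.06) and Pax8 (-0.73), which adult tubules still use, fell less far, as log2 changes.

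The ureteric tip lost its defining signals over the same days. The ureteric tip list holds 12 genes of the ureteric bud, most of them of the tip. Of these 8 fell and none rose, with a median of -1.22. Ret, the receptor that answers Gdnf, stood at 37.5, 27.4 and 23.8 CPM at P3 and at 2.11, 2.28 and 2.38 CPM at P12. Its co-receptor Gfra1 went from 111, 87.9 and 104 CPM to 8.72, 7.28 and 7.34 CPM (-3.69 ± 0.223, edgeR adjusted p = 5.32e-13). Etv4, a transcription factor downstream of Ret, fell from 34.4, 35.2 and 27.4 CPM to 1.47, 2.095 and 1.20 CPM (-4.35 ± 0.274). All 3 therefore fell more than 10-fold on this scale of means, with each P12 library below each P3 library. Sox9 fell by 2.94, Etv5 by 1.44, Wnt11 by 1.01 and Emx2 by 0.77 on the log2 scale. Spry1 (-0.33) and Dusp6 (-0.31), which damp the same signal, and Wnt9b (-0.24) and Sox8 (-0.25) did not pass the test.

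Imprinted growth genes, which are read from 1 parental copy and promote or restrain fetal growth, formed another falling group. Of 16 genes 9 fell and 1 rose, with a median of -1.20. H19, a long noncoding RNA on chromosome 7 at 142575529 to 142578143 (mm10, minus strand), stood at 747, 1078 and 661 CPM at P3 and at 30.9, 39.7 and 24.1 CPM at P12 (-4.71 ± 0.319, edgeR adjusted p = 3.91e-12). Its neighbour Igf2 went from 428, 549.8 and 328 CPM to 24.04, 29.1 and 21.4 CPM (-4.13 ± 0.271). Both had been higher still at P0, at means of 1880 CPM for H19 and 1163 CPM for Igf2, so their means were lower at each later age. Mest (-2.33), Peg10 (-2.75), Slc38a4 (-2.02), Rian (-1.60), Ndn (-1.27), Grb10 (-1.12) and Plagl1 (-0.99) fell as well, as log2 changes. The growth restrainer Cdkn1c, at 456, 857 and 541 CPM and then 738, 703 and 571 CPM, overlapped between the ages (0.12 ± 0.244, edgeR adjusted p = 0.747). Peg3 (-0.35), Igf2r (-0.21), Dlk1 (-1.74, with 73.2 CPM in P3 replicate 2 against 16.9 and 15.2), Meg3 (-0.06) and Zim1 (0.28) did not pass the test. Phlda2 rose by 0.57, a call that was lost without P12 replicate 2 or P3 replicate 1.

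The deposited table also counts Mir675, the precursor gene of miR-675, whose 62.9, 95.1 and 57.0 CPM at P3 fell to 2.64, 3.28 and 2.29 CPM at P12. It lies inside an H19 exon, exon 1 of transcript H19-202 at 142576829 to 142578143 in GENCODE M21, so its reads are those of the H19 RNA and no level of the mature microRNA was measured. The mature sequences of both arms are shown because their host RNA led the falls above, and the capitals mark the seed, bases 2 to 8, with which a microRNA pairs to its targets (RefSeq, GRCm38.p6, chr7:142577078-142577099 and chr7:142577112-142577133, both on the minus strand).
mmu-miR-675-3p: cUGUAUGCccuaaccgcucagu
mmu-miR-675-5p: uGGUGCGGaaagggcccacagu
The arms have different seeds and so form no shared seed group.

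RNA binding proteins and chromatin factors of fetal growth followed. Of 9 measured genes 8 fell and none rose, with a median of -1.02. Igf2bp2, which binds Igf2 RNA, fell from 61.3, 54.9 and 51.7 CPM to 12.2, 10.2 and 12.3 CPM (-2.27 ± 0.134, edgeR adjusted p = 5.32e-13). Hmga2, a chromatin protein of growing tissue, fell by 2.46, Hmga1 by 1.75, Igf2bp3 by 1.39, Igf2bp1 by 0.83 and the DNA methylation genes Uhrf1 by 1.02, Dnmt1 by 0.69 and Dnmt3b by 0.60 on the log2 scale. Arid3a, at 0.03 ± 0.152, did not pass the test.

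Cell cycle genes were lower at P12, by less than progenitor or tip genes and with 1 library below the others. Of 30 genes 20 fell and none rose, with a median of -0.66. Top2a, the topoisomerase of dividing cells, stood at 248, 192 and 202 CPM at P3 and at 125, 117 and 77.3 CPM at P12 (-1.01 ± 0.183, edgeR adjusted p = 9.07e-05). Mybl2, which drives mitotic genes, fell from 20.3, 22.2 and 20.1 CPM to 9.28, 6.98 and 4.79 CPM (-1.57 ± 0.229). The DNA replication helicase genes Mcm2 to Mcm7 all fell, by 0.48 (Mcm6) to 0.96 (Mcm3) on the log2 scale. Mki67, the usual marker of cycling cells, stood at 138, 135 and 152 CPM and then at 122, 128 and 88.5 CPM (-0.33 ± 0.203, edgeR adjusted p = 0.22), and Rrm2 (-0.18), E2f1 (-0.17), Ccnb2 (-0.40) and Cdc20 (-0.42) did not pass the test either. P12 replicate 3 had the lowest sum over the 30 genes, 1104 CPM against 1576 and 1595, and without it 12 genes fell and the median was -0.50. At P0 the list stood below its P3 level, by 0.37 on the mean log2 scale, so that P3 was the highest of the 3 ages.

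Promoters of 24 of these 30 genes were found in RefSeq (GRCm38.p6), as windows of 300 bases from 250 before to 50 after the start. The letters CCAAT were searched on both strands and found in 80% of the 25 windows of the list and in 37.1% of the 15169 windows of all tested genes. TTTGAA, the core of the cell cycle homology region through which such genes are held silent in resting cells, was found in 40.0% and 12.4%. Both occurred in 10 of the 24 genes, counted over all windows of a gene, and 6 of these fell and 4 did not pass the test. Of all windows 5.01% held both, a share of single windows and not of genes. In the full list, with or without these letters, 20 of 30 genes fell. Windows that share a gene are not independent, and a match is a description of letters and not evidence of binding. Cdk1 (chr10:69352863-69353162, minus strand) and Top2a (chr11:99024140-99024439, minus strand) are shown as 2 of the 6 falling genes with both motifs, with every CCAAT and TTTGAA of either strand in capitals.
Cdk1: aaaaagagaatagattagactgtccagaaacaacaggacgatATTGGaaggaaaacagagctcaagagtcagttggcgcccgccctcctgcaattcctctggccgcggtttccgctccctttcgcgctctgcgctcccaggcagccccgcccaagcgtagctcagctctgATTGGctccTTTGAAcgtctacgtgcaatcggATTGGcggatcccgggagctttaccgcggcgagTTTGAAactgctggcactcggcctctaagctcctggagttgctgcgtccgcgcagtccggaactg
Top2a: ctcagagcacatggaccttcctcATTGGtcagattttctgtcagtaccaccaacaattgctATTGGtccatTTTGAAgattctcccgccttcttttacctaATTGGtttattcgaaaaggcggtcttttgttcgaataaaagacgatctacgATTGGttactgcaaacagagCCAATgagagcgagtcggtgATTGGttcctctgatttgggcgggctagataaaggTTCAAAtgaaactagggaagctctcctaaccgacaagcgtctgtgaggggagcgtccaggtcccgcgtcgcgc
Cdk1 holds 3 CCAAT and 2 TTTGAA matches and Top2a holds 6 and 2. Cdk1 itself fell from 68.9, 83.1 and 60.2 CPM to 47.2, 53.7 and 31.1 CPM (-0.69 ± 0.251, edgeR adjusted p = 0.0332).

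Genes of ribosome production fell as well. Of 14 genes for making ribosomes 12 fell and none rose, with a median of -0.66. Mycn, the Myc gene of the embryonic kidney, fell from 55.2, 52.5 and 40.6 CPM to 11.6, 11.4 and 11.4 CPM (-2.11 ± 0.172, edgeR adjusted p = 1.34e-10), and Myc fell by 0.99. The nucleolar protein genes Npm1 (-0.91), Fbl (-0.88), Nop56 (-0.81), Nop58 (-0.79) and Ncl (-0.51) fell by less, as log2 changes. Polr1a (-0.35) and Bop1 (-0.15) did not pass the test.

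**Figure D2:**
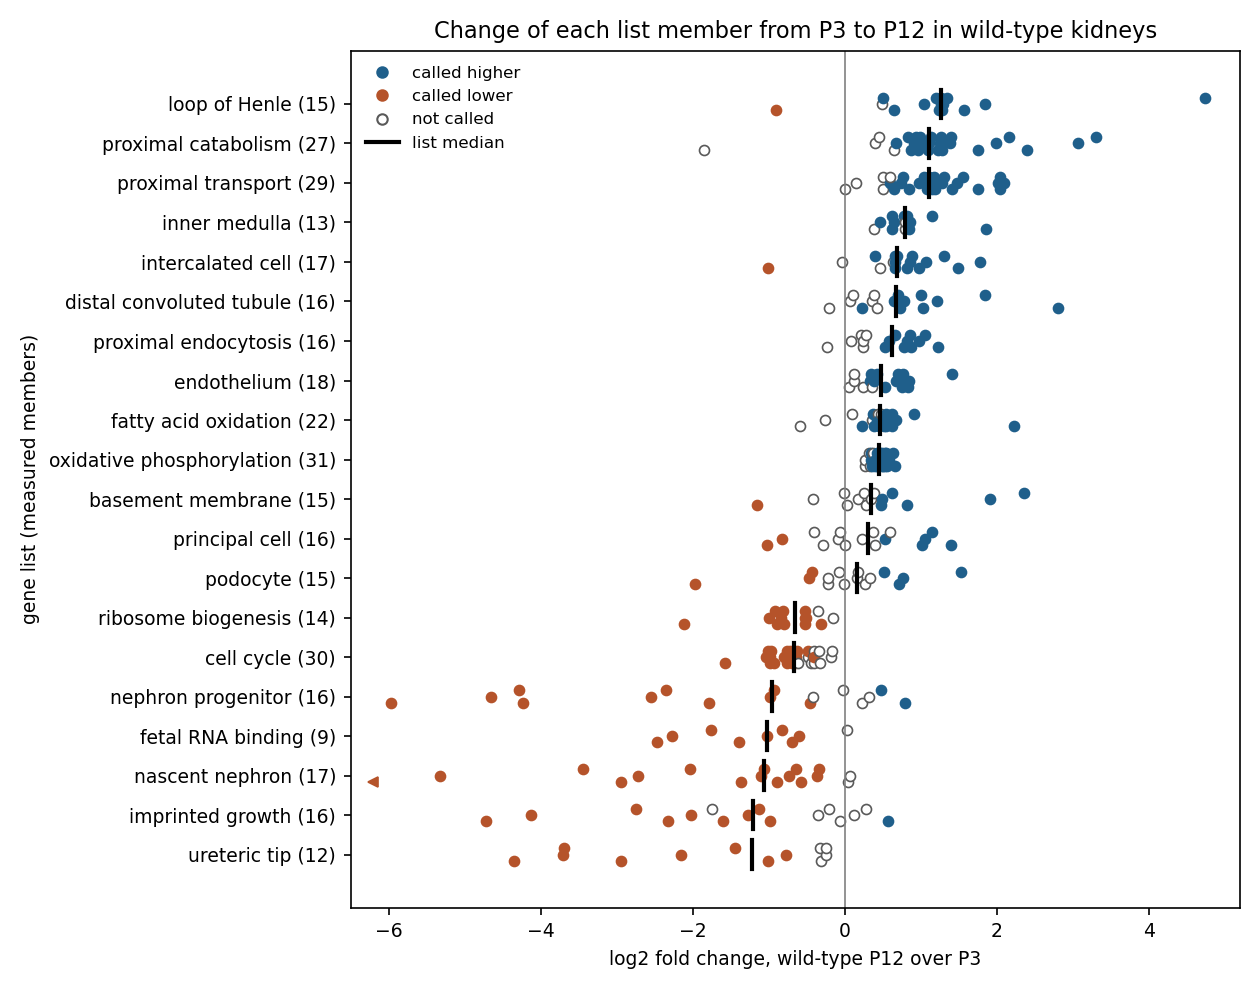
Log2 fold change from P3 to P12 of each measured member of 20 gene lists, 1 point per gene, filled where the gene was called and open where it was not, with the median of the list as a bar. Fgf8 lies beyond the left end of the axis and is drawn as an arrow there, and members of the loop of Henle and proximal tubule lists lie mostly to the right of 0 and those of the progenitor, nascent nephron and ureteric tip lists mostly to the left.

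Proximal tubule transporters rose as a group. Of 29 genes for the uptake of phosphate, glucose, amino acids and organic ions 24 rose and none fell, with a median of 1.11, and the summed level went from between 3423 and 4937 CPM to between 8400 and 9938 CPM. Slc5a2 (SGLT2), which recovers most filtered glucose, stood at 95.6, 98.1 and 108 CPM at P3 and at 371, 424 and 448 CPM at P12 (2.04 ± 0.251, edgeR adjusted p = 3.66e-07). Slc34a1, the main phosphate transporter, rose from 1147, 1028 and 1345 CPM to 2438, 2484 and 3049 CPM (1.18 ± 0.225), and its relative Slc34a3 by 2.02 ± 0.35. The lactate transporter gene Slc5a12 rose by 2.05, the vitamin C transporter Slc23a1 by 1.55, the neutral amino acid carrier Slc6a19 by 1.48 and the sulfate transporter Slc13a1 by 1.76 on the log2 scale. Each of these genes had all P12 libraries above all P3 libraries. The organic anion carriers split: Slc22a8 (OAT3) rose by 1.28, while Slc22a6 (OAT1) stood at 191, 150.3 and 258 CPM and then at 169.7, 220.0 and 211 CPM (0.00 ± 0.262, edgeR adjusted p = 0.992) after a mean of 427 CPM at P0. Slc2a2 (0.60), Slc22a2 (0.50), Slc17a1 (0.15) and Slc17a3 (0.51) did not pass the test. The proximal genes were low in P3 replicate 2, and without it 20 rose and the median was 0.92.

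The apparatus of protein uptake and the brush border moved less. Of 16 genes 10 rose and none fell, with a median of 0.62. Without P3 replicate 2, 7 rose and 1 fell, and the median was 0.50. Lrp2 (megalin), the main receptor for filtered protein, went from 651, 519 and 692 CPM to 1006, 1216 and 1146 CPM (0.86 ± 0.209, edgeR adjusted p = 0.00193). Its partners Amn (0.98), Dab2 (0.87) and Cubn (0.66) rose, as did the peptidases Mep1a (1.23), Ace (1.06), Mep1b (0.82), Dpep1 (0.79), Mme (0.58) and Ggt1 (0.53), as log2 changes. Anpep (0.21), Enpep (-0.24), Dpp4 (0.28), Clcn5 (0.24) and Ap1m2 (0.08) did not pass the test.

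Enzymes of proximal tubule catabolism and glucose production rose with the transporters. Of 27 measured genes 23 rose and none fell, with a median of 1.11. G6pc, the last step of glucose release, stood at 119, 89.8 and 171 CPM at P3 and at 488, 483 and 729.6 CPM at P12 (2.16 ± 0.406, edgeR adjusted p = 0.000163). Pck1, the first step of glucose synthesis, rose from 365, 426 and 676 CPM to 1575, 1310 and 2081 CPM (1.76 ± 0.537). The ages overlapped for neither gene, and the spread was wider for Pck1. Ass1 (1.40), Fah (1.38), Hgd (1.29), Khk (1.23) and Acy1 (1.26), enzymes of arginine, tyrosine, fructose and acylated amino acid handling, rose by similar amounts, as log2 changes. Of the vitamin D enzymes 1 was called. Cyp27b1, which makes the active hormone, stood at 4.54, 1.39 and 10.0 CPM and then at 11.5, 12.4 and 60.7 CPM (2.40 ± 0.719, edgeR adjusted p = 0.0111). Cyp24a1, which degrades it, stood at 110.3, 87.6 and 40.3 CPM and then at 27.1, 15.0 and 23.7 CPM (-1.86 ± 0.757, edgeR adjusted p = 0.0587) after a mean of 389 CPM at P0. Haao (0.45), Kynu (0.65) and Prodh2 (0.41) did not pass the test either.

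Drug and steroid metabolising enzymes were mixed. Of 19 measured genes 10 rose and 3 fell, with a median of 0.96. The esterase Ces1d rose from 1.73, 1.28 and 2.34 CPM to 11.8, 22.9 and 28.3 CPM (3.55 ± 0.409), the glucuronosyltransferase Ugt3a1 by 2.07 and the monooxygenases Fmo2 and Fmo1 by 1.47 and 1.44. Ugt2b38 (-1.35), Cyp7b1 (-0.93) and Ugt1a2 (-0.64) fell, as log2 changes, and 1 gene fell without P12 replicate 1 or without P12 replicate 2. Cyp4a10 and Cyp4a14, at 0.16 and 1.23 with wide errors of 0.65 and 0.687, had means of 14.7 and 2.03 CPM at P0 and of 129 and 98.4 CPM at P3 and were thus already above their P0 level at P3.

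Promoter windows were found for 58 genes of the transport, uptake and catabolism lists. The letters GTTAAT occurred on either strand in 19.2% of their 78 windows, in 5.02% of all windows, in 6.91% of the windows of all genes that rose and in 4.56% of all that fell. Among genes at least 2-fold higher at P12 the share was 12.1%, and among those at least 2-fold lower it was 5.17%. These sets share genes. Of the 15 proximal genes with a match 12 rose and 3 did not pass the test. In the full lists, with or without a match, 24 of 29 transport, 10 of 16 uptake and 23 of 27 catabolism genes rose. The match was therefore not seen to mark the genes that rose within these lists. The longer GTTAATNAT was found in 3.85% of the 78 windows and in 0.58% of all windows. The 3 of the 58 genes with it were G6pc and Glyctk, which rose, and Prodh2, which did not pass the test. CAAAGTNCA, a site form of HNF4, was found in 5.13% of the proximal windows and in 1.13% of all windows. The G6pc (chr11:101367466-101367765, plus strand) and Glyctk (chr9:106158089-106158388, minus strand) promoters are shown because both genes rose, with GTTAATNAT of either strand in capitals (RefSeq, GRCm38.p6).
G6pc: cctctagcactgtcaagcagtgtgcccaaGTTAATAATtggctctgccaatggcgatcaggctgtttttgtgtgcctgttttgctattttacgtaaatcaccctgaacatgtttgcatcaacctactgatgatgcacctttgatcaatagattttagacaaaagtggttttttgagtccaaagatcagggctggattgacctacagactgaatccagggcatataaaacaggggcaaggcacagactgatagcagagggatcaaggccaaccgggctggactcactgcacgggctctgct
Glyctk: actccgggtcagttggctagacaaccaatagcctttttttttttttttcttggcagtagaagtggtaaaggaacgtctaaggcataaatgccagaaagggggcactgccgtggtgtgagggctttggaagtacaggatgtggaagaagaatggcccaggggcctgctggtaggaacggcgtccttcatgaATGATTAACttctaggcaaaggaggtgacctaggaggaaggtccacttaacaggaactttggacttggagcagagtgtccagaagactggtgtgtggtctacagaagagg
Glyctk, a kinase of serine and fructose breakdown, stood at 52.0, 37.3 and 50.6 CPM at P3 and at 96.0, 105 and 102 CPM at P12 (1.11 ± 0.183, edgeR adjusted p = 2.52e-05).

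The loop of Henle list had the highest median of the 44 lists examined. Of 15 genes 13 rose and 1 fell, with a median of 1.27. Umod (uromodulin), the protein of the thick ascending limb, stood at 498, 457 and 642 CPM at P3 and at 1867, 1880 and 2029 CPM at P12 (1.85 ± 0.246, edgeR adjusted p = 1.13e-06). Slc12a1 (NKCC2), its salt transporter, rose from 513, 414 and 615 CPM to 1413, 1182 and 1326 CPM (1.35 ± 0.239). The channels and partners that this transport needs rose by like amounts: Kcnj1 by 1.29, Bsnd by 1.20 and the calcium sensor Casr by 1.57 on the log2 scale. Cldn16, which lets calcium and magnesium pass between cells, rose from 10.9, 13.3 and 12.2 CPM to 28.3, 31.8 and 27.9 CPM (1.27 ± 0.159), while its partner Cldn19 went from 95.6, 117 and 107 to 148, 158 and 145 CPM without passing the test (0.49 ± 0.217, edgeR adjusted p = 0.0759). Nos1, the nitric oxide synthase of the macula densa, fell by 0.90.

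Distal convoluted tubule genes had a lower median. Of 16 genes 10 rose and none fell, with a median of 0.68. Slc12a3 (NCC), the thiazide-sensitive salt transporter, rose from 133, 97.7 and 129 CPM to 414, 419 and 464 CPM (1.85 ± 0.249, edgeR adjusted p = 1.49e-06). Pvalb, a calcium-binding protein of its first portion, rose by 2.81 ± 0.521, from 0.611, 1.26 and 0.842 CPM to 4.97, 7.70 and 6.44 CPM. The potassium channel genes Kcnj10 and Kcnj16 rose by 1.22 and 1.003, and the kinases Wnk1 and Wnk4 by 0.72 and 0.71. Calcium transport genes of the later portion, Calb1 (0.11), S100g (0.07), Trpv5 (0.38) and Slc8a1 (-0.20), did not pass the test, as log2 changes. Without P3 replicate 2, 6 genes rose and the median was 0.44.

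In the collecting duct, more genes were called of intercalated than of principal cells. Of 17 intercalated cell genes 13 rose and 1 fell, with a median of 0.69. Slc26a4 (pendrin), the bicarbonate exchanger, stood at 27.3, 20.5 and 16.9 CPM at P3 and at 60.4, 63.6 and 58.2 CPM at P12 (1.49 ± 0.27, edgeR adjusted p = 8.42e-05). Aqp6 rose from 17.6, 28.8 and 19.8 CPM to 73.9, 77.9 and 74.8 CPM (1.78 ± 0.297), and the proton pump subunits Atp6v1b1, Atp6v0a4 and Atp6v1g3 rose by 1.07, 0.88 and 0.82. Slc4a1 rose by 1.31, a call that was lost without P3 replicate 3, and it is also an erythroid gene. Slc26a7 fell by 1.002, and Kit was at -0.03. Among 16 principal cell genes 5 rose and 2 fell, with a median of 0.31, or 0.18 without P12 replicate 2. Hsd11b2, which protects the mineralocorticoid receptor from glucocorticoid, rose by 1.40, the receptor gene Nr3c2 by 1.05 and the sodium channel subunit Scnn1a by 1.02 on the log2 scale, from 69.1, 61.0 and 57.0 CPM to 108, 139 and 133 CPM. Its partner subunits Scnn1b (-0.09) and Scnn1g (0.23) did not pass the test. Neither did the water channel Aqp2, at 228, 389.8 and 543 CPM and then at 266, 369 and 241 CPM (-0.41 ± 0.363, edgeR adjusted p = 0.412), or the vasopressin receptor Avpr2 (0.40). Gata3 and Elf5, transcription factor genes of this cell, fell by 0.83 and 1.02.

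Genes of the urine-concentrating medulla rose. Of 13 genes 10 rose and none fell, with a median of 0.79. The urea transporter gene Slc14a2 stood at 28.1, 29.3 and 39.8 CPM at P3 and at 107, 131 and 116 CPM at P12 (1.86 ± 0.288, edgeR adjusted p = 1.18e-05). Slc5a3 (0.86), Aqp1 (0.85), Slc14a1 (0.82) and Nfat5 (0.78), the factor that answers high salt, rose by less. Akr1b3, the sorbitol-making enzyme, had 65.5, 260.0 and 163 CPM in the P12 libraries, the widest spread of the list, and did not pass the test (0.79 ± 0.411). Without P3 replicate 1, 5 genes rose and the median was 0.55.

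The claudins, which set what passes between cells, moved in both directions. Of 16 genes 5 rose and 5 fell, with a median of -0.26. Those that fell included the claudins of immature epithelium, Cldn6, from 72.6, 107 and 76.5 CPM to 36.7, 35.95 and 32.6 CPM (-1.28 ± 0.176, edgeR adjusted p = 1.81e-06), and Cldn9 (-1.97), with Cldn14 (-1.79), the endothelial Cldn5 (-0.86) and Cldn3 (-0.59). Those that rose were Cldn16 (1.27), Cldn2 (0.90) of the proximal tubule, Cldn15 (0.61), Cldn10 (0.51) and Cldn12 (0.41), as log2 changes.

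Most podocyte genes were not called. Of 15 genes 4 rose and 3 fell, where 18.6% and 17.0% of all genes did, and 8 were not called. The median was 0.17, and it was 0.11 without P12 replicate 1 and 0.015 without P3 replicate 2. Wt1, which is active both in progenitors and in podocytes, fell from 116, 113 and 119 CPM to 32.2, 27.7 and 29.3 CPM (-1.97 ± 0.177, edgeR adjusted p = 1.03e-09). Mapt rose by 1.53 and Clic5 by 0.77, while the slit protein Nphs1 (0.33) and Podxl (0.17) did not pass the test. The rise of Magi2 (0.52) was lost without P12 replicate 1, P3 replicate 1 or P3 replicate 2.

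In the basement membrane, chains of the mature glomerular filter rose. Col4a3 stood at 82.1, 65.6 and 121 CPM at P3 and at 383, 457 and 537 CPM at P12 (2.36 ± 0.297, edgeR adjusted p = 5.97e-07), and Col4a4 at 132, 103 and 169 and then at 472, 514 and 534 CPM (1.91 ± 0.248). Their partner Col4a5 rose by 0.83 ± 0.202. Lama1, the laminin chain of the forming nephron, fell from 138, 165 and 164 CPM to 73.4, 71.2 and 64.7 CPM (-1.16 ± 0.176). The P3 and P12 libraries did not overlap for any of these 4 chains. Over the list of 15 genes 6 rose and 1 fell, with a median of 0.35, and without P3 replicate 1 the number that rose was 3 and the median 0.23. The widely used chains Col4a1 (0.39), Lamb1 (-0.01) and Lamc1 (-0.41) did not pass the test.

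Most other matrix genes were not called, and the falls included 2 genes of developing tissue. Fbn2, the fibrillin of development, stood at 113, 111 and 104 CPM at P3 and at 13.6, 12.4 and 8.82 CPM at P12 (-3.23 ± 0.215, edgeR adjusted p = 2.63e-12), and Vcan at 149, 134 and 141 and then at 32.7, 32.4 and 28.4 CPM (-2.18 ± 0.204). Of 25 matrix genes 6 fell and 4 rose, where 17.0% and 18.6% of all genes did, and 15 were not called. The median was 0.20, and the main fibrillar collagen genes Col1a1 (-0.02), Col1a2 (0.20) and Col3a1 (0.32) did not pass the test. The number of rises (Col14a1, Dcn, Fn1 and Sparc, 0.40 to 0.73) was 2 without any 1 of the P12 libraries, 1 without P3 replicate 3, 0 without P3 replicate 1 and 5 without P3 replicate 2, and the median was 0.09 without P12 replicate 1 and 0.07 without P3 replicate 1 or P3 replicate 3. The summed level of this list in P3 replicate 2 was 12620 CPM against 9275 and 9469, and without that library 4 genes fell and the median was 0.24.

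Stromal and mural genes were lower in part. Of 16 genes 7 fell and 2 rose, with a median of -0.39, and the median was -0.60 without P3 replicate 1 and -0.61 without P3 replicate 3. Without P3 replicate 2, 4 fell and the median was -0.13. Meis1, a stromal transcription factor, fell from 55.5, 61.3 and 50.9 CPM to 19.2, 19.8 and 19.7 CPM (-1.51 ± 0.17, edgeR adjusted p = 7.18e-08), Foxd1, which marks the stromal progenitor, by 0.99, and Penk by 1.75. Pdgfra (0.47), Pdgfrb (0.13) and Rgs5 (0.07), markers of interstitial cells and pericytes, did not pass the test. Smooth muscle genes were highest in P3 replicate 2, with 180.2 CPM for Myh11 against 54.7 and 67.3.

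Endothelial genes rose by small amounts. Of 18 genes of endothelium and its growth signals 13 rose and none fell, with a median of 0.48. Angpt2, a modifier of vessel growth, stood at 23.3, 22.9 and 35.4 CPM at P3 and at 73.9, 74.2 and 70.2 CPM at P12 (1.42 ± 0.194, edgeR adjusted p = 1.73e-06). Plvap, of fenestrated capillaries, rose by 0.77, Flt1 by 0.77, Ehd3 by 0.70, Vegfa by 0.68 and Pecam1 by 0.43 on the log2 scale. Cdh5 (0.12), Kdr (0.36) and Nos3 (0.12) did not pass the test.

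Genes of the renin-angiotensin system moved in both directions, with its receptors apart. Agt (angiotensinogen) rose from 22.7, 23.3 and 26.7 CPM to 119, 145 and 142 CPM (2.48 ± 0.274, edgeR adjusted p = 6.12e-08), and the type 1 receptor gene Agtr1a from 37.0, 37.6 and 46.0 to 63.8, 72.2 and 74.5 CPM (0.80 ± 0.112). The type 2 receptor gene Agtr2 fell from 30.4, 41.1 and 28.4 CPM to 11.0, 8.33 and 4.78 CPM (-2.05 ± 0.3). The ages did not overlap in any of these. Ren1, at 345, 290.0 and 342 CPM and then at 301, 454 and 306 CPM (0.12 ± 0.286, edgeR adjusted p = 0.782) after a mean of 764 CPM at P0, did not pass the test. Of 11 measured genes 5 rose and 1 fell, and 2 fell without P12 replicate 1 or without P3 replicate 2.

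Transcription factor genes of the nephron segments rose with the segments. Of 25 genes 18 rose and 2 fell, with a median of 0.67. Ppara rose by 1.49, the bile acid receptor Nr1h4 by 1.28, Esrrb by 1.18, Maf by 1.03, Klf15 by 1.01 and Hnf4a by 0.89 on the log2 scale. Hnf4a, which drives proximal tubule maturation, stood at 243, 171 and 279 CPM at P3 and at 414, 398 and 470.0 CPM at P12 (edgeR adjusted p = 0.000106). Lmx1b (-0.93) and Gata3 (-0.83) fell.

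Clock output genes were higher at P12. Of 19 clock and glucocorticoid-response genes 9 rose and 1 fell, with a median of 0.57. The PAR factor gene Hlf rose from 20.2, 16.2 and 18.4 CPM to 47.6, 54.9 and 57.1 CPM (1.54 ± 0.186, edgeR adjusted p = 2.52e-07), and Per3, Dbp and Tef by 1.32, 1.18 and 0.97. The sources used here do not state the time of day of tissue collection, and its part in these values was not tested. Glucocorticoid targets did not share the direction: Fkbp5 fell by 0.94, a call lost in 5 of 6 fits without 1 library, Sgk1 (0.29) and Tsc22d3 (0.12) did not pass the test, and Per1, which did not pass it either, had means of 114 CPM at P0, 28.6 CPM at P3 and 39.7 CPM at P12. Fkbp5 kept its call only in the fit without P3 replicate 3.

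Mitochondrial energy genes rose by small and even amounts. Of 31 genes of oxidative phosphorylation 26 rose and none fell, with a median of 0.45, and 17 rose without P3 replicate 1, 17 without P3 replicate 3 and 15 when the 6 libraries were fitted alone. Sdha, a subunit of complex II, stood at 414, 388 and 421 CPM at P3 and at 609, 656 and 639.9 CPM at P12 (0.64 ± 0.0898, edgeR adjusted p = 2.63e-06). Of 22 genes of fatty acid oxidation 16 rose and none fell, with a median of 0.47, led by Acot12 (2.23) and Acaa1b (0.91). Of 18 glycolysis genes 6 rose and 1 fell, with a median of 0.40 (0.27 without P3 replicate 3), and the gene that fell was Hk2 (-1.66), the hexokinase of growing tissue.

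**Figure D3:**
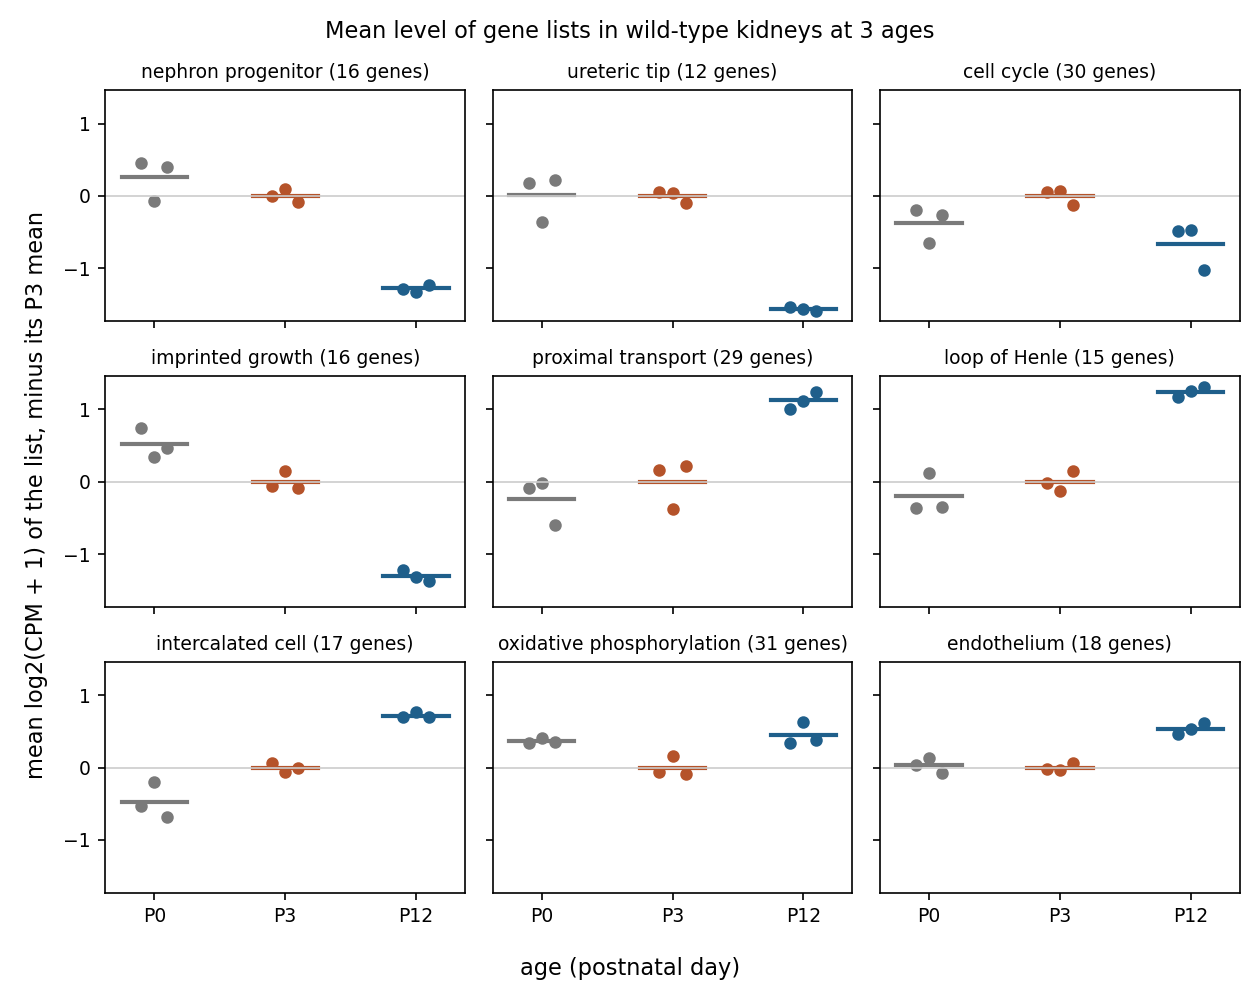
Mean log2(CPM + 1) over the members of 9 gene lists in each wild-type library at P0, P3 and P12, less the mean of the list at P3, with a bar at the mean of the 3 libraries. Progenitor genes lie 1.28 lower at P12 than at P3 and ureteric tip genes 1.56 lower, transport genes lie 1.12 higher and loop of Henle genes 1.24 higher, and the oxidative phosphorylation genes are higher at P0 (0.37) and at P12 (0.45) than at P3.

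Each of the 9 lists drawn moved further from P3 to P12, a longer interval, than from P0 to P3. On the mean log2(CPM + 1) scale, ureteric tip genes stood 0.01 above their P3 level at P0 and 1.56 below it at P12, and endothelial genes 0.03 above it at P0 and 0.53 above it at P12. Proximal transport genes stood 0.24 below their P3 level at P0 and 1.12 above it at P12, loop of Henle genes 0.20 below and 1.24 above, and intercalated cell genes 0.47 below and 0.72 above. Imprinted genes stood 0.52 above their P3 level at P0 and 1.30 below it at P12. Over all 3350 genes that rose from P3 to P12, the median level per kilobase of transcript was 6.94 RPKM at P0, 7.14 at P3 and 11.4 at P12, and over the 3063 that fell it was 7.41, 7.75 and 4.63. P3 enters both steps, so these levels are given as a description.

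The 2 genes mutated in the study and Pkd2, the partner of Pkd1, all rose in wild type, by unequal amounts. Pkhd1, which encodes fibrocystin of the collecting duct and loop cilia, stood at 91.5, 61.6 and 103 CPM at P3 and at 249.5, 178 and 225 CPM at P12 (1.35 ± 0.214, edgeR adjusted p = 1.52e-05). Pkd2 (polycystin-2), at 140.0, 99.8 and 139.9 CPM and then at 175, 173 and 190.1 CPM, rose by 0.50 ± 0.195 (edgeR adjusted p = 0.0441). Pkd1 (polycystin-1), at 68.8, 57.9 and 73.7 and then at 96.3, 76.9 and 92.1 CPM, rose by 0.40 ± 0.154 (edgeR adjusted p = 0.0401). All 3 were lowest in P3 replicate 2 among the P3 libraries. The call of Pkd2 was lost in each of the 6 fits without 1 library and that of Pkd1 in 5 of them, with adjusted p from 0.0535 to 0.199 in those 5, while Pkhd1 kept its call. Without P3 replicate 2 the change was 0.36 for Pkd2 and 0.31 for Pkd1. Of 23 genes of cystic disease and the cilium 7 rose and none fell, with a median of 0.09: these 3, Umod, and the Bardet-Biedl genes Bbs1 (0.60), Bbs2 (0.56) and Bbs4 (0.48). The number that rose was 4 without P12 replicate 1, P12 replicate 3, P3 replicate 1 or P3 replicate 2, and the median was 0.05 without P3 replicate 1. The transport genes of the cilium, Ift88 (0.04), Ift140 (-0.13), Ift20 (0.05) and Kif3a (-0.16), did not pass the test.

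Developmental signalling changed at a few members. Of 20 hedgehog, Wnt and Notch genes 7 fell and 2 rose (Sfrp1 and Wnt5a), with a median of -0.33. Without P3 replicate 2 the median was -0.20, and the call of Wnt5a was lost without P12 replicate 1 or P3 replicate 1. The Wnt effector Lef1 fell from 21.6, 25.6 and 20.4 CPM to 6.92, 6.38 and 5.30 CPM (-1.86 ± 0.214, edgeR adjusted p = 1.11e-07). The receptor gene Lgr5 of the Wnt pathway fell by 2.23, Gli3 by 1.59, Gli2 by 1.18 and the Notch target Heyl by 1.14. The secreted Wnt inhibitor Sfrp1 rose by 0.71, while Sfrp2 fell by 1.35. The hedgehog ligand genes Shh (-0.56) and Ihh (0.59) and the target genes Gli1 (-0.33) and Ptch1 (0.12) did not pass the test.

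The ligands of growth factor families moved in both directions. In the epidermal growth factor family Egf rose, as above, while Tgfa fell from 26.6, 21.7 and 22.1 CPM to 12.2, 12.2 and 12.2 CPM (-0.95 ± 0.145, edgeR adjusted p = 9.13e-06). Their shared receptor gene Egfr rose by 1.04 ± 0.184, and of 9 measured genes 4 rose and 2 fell. The other calls were weak: Erbb3 (0.52) and Erbb4 (0.56) were each lost without P12 replicate 1, P12 replicate 3, P3 replicate 1 or P3 replicate 2, which left 2 rises, and Btc (-0.73) was lost without P12 replicate 1, P12 replicate 3 or P3 replicate 3. In the insulin-like growth factor axis Igf2 fell, as above, while Igf1 rose from 60.7, 64.0 and 71.1 CPM to 107, 101 and 108 CPM (0.69 ± 0.172, edgeR adjusted p = 0.0024). Of 14 genes 7 rose and 2 fell, with a median of 0.47, and 4 rose without P12 replicate 3. The binding protein genes Igfbp7 (1.20) and Igfbp2 (1.05) and Stc2 (1.48) rose, Igfbp6 (-2.23) fell, and the receptors Igf1r (0.13) and Igf2r (-0.21) did not pass the test.

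Lists of blood, immune and neighbouring cells were checked beside these results. Of 14 measured macrophage genes 1 rose (Csf1r, 0.48) and 1 fell (Lyve1, -1.47), each call was lost in 4 of 6 fits without 1 library, and the summed level of the list lay between 183 and 250.4 CPM at P3 and between 190.4 and 244 CPM at P12. Of 8 lymphocyte genes Ighm (1.17) rose and Lck (-0.76), Cd79b (-0.66) and Ptprc (-0.58) fell. The call of Ighm was lost without P3 replicate 1, that of Cd79b without P3 replicate 2 and that of Ptprc without P3 replicate 3 or any 1 of the P12 libraries. Of 7 class II genes H2-DMb1 (0.86) rose, a call lost without P12 replicate 1, P12 replicate 2, P3 replicate 1 or P3 replicate 2. Of 16 interferon genes Ifit3 (0.92), Rsad2 (0.57) and Ddx58 (0.44) rose, with no interferon gene left without P12 replicate 3 or without P3 replicate 2. Of 12 immediate early genes Egr1 fell by 1.14 and Ier2 by 0.56. Of 15 genes used as signs of tubular injury 5 fell (Sox9, Timp1, Krt20, Vim and Krt18) and 3 rose (Spp1, Gdf15 and Vcam1), with 3 falls without P12 replicate 1, P12 replicate 3 or P3 replicate 2 and 1 rise without P3 replicate 1 or P3 replicate 2. No adrenal gene of 12 passed the test, and among 8 fat genes the brown fat genes Ucp1 and Cidea rose, Ucp1 with 0, 38 and 18 counts at P3 and 184, 786 and 1244 at P12. The call of Cidea was lost without P12 replicate 3, P3 replicate 1 or P3 replicate 3. Of 9 erythroid genes Tfrc (1.52) and Slc4a1 rose, 5 rose without P3 replicate 2 and 1 without P3 replicate 3. Apart from the counts given without a library, the part of these tissues in the wild-type change was not tested. Their summed levels at P3 and P12 were 23.4 to 62.8 and 21.9 to 25.9 CPM for adrenal genes, 134 to 227 and 125 to 199 CPM for fat genes, and 6.44 to 14.6 and 4.48 to 4.88 CPM for 5 muscle genes, of which Tnnt3 (-3.05) and Acta1 (-2.36) fell. The call of Acta1 was lost without P12 replicate 1, P12 replicate 3 or P3 replicate 2. Among 12 gut, liver and pancreas genes Serpina1a (1.66) and Fga (1.56) rose and Afp (-2.17) and Cpa1 fell, and the liver gene Alb was at most 0.725 CPM.

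The same interval was measured in the other genotypes on separate libraries. In 2 of these the column headers differ from the sample labels: the header of digenic P12 replicate 1 gives its age as P3, and that of Pkd1-RC/RC P12 replicate 2 gives its genotype as Pkhd1. The labels were used, and values without both libraries are given beside the results. From P3 to P12, 6241 genes (34.6%) differed in Pkd1-RC/RC kidneys, 6603 (36.6%) in Pkhd1-/- kidneys and 4018 (22.3%) in digenic kidneys. Without those 2 libraries the counts were 5294, 6531 and 2715. Of the 3350 genes that rose in wild type, 98.7% had a positive change in Pkd1-RC/RC, 99.6% in Pkhd1-/- and 90.3% in digenic kidneys, and 70.4%, 79.6% and 39.7% were also called. Of the 3063 that fell, 99.1%, 99.7% and 92.5% had a negative change, and 79.9%, 83.0% and 46.7% were called. The sizes followed: the median of the genes that rose was 0.67 in wild type, 0.55 in Pkd1-RC/RC, 0.63 in Pkhd1-/- and 0.37 in digenic kidneys, and that of the genes that fell was -0.72, -0.63, -0.69 and -0.40. Without the 2 libraries the digenic medians were 0.36 and -0.37, and 28.5% and 33.1% of these genes were called in digenic kidneys. The genes were chosen on the wild-type values, so these medians are a description, and the tests of the difference itself follow.

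**Figure D4:**
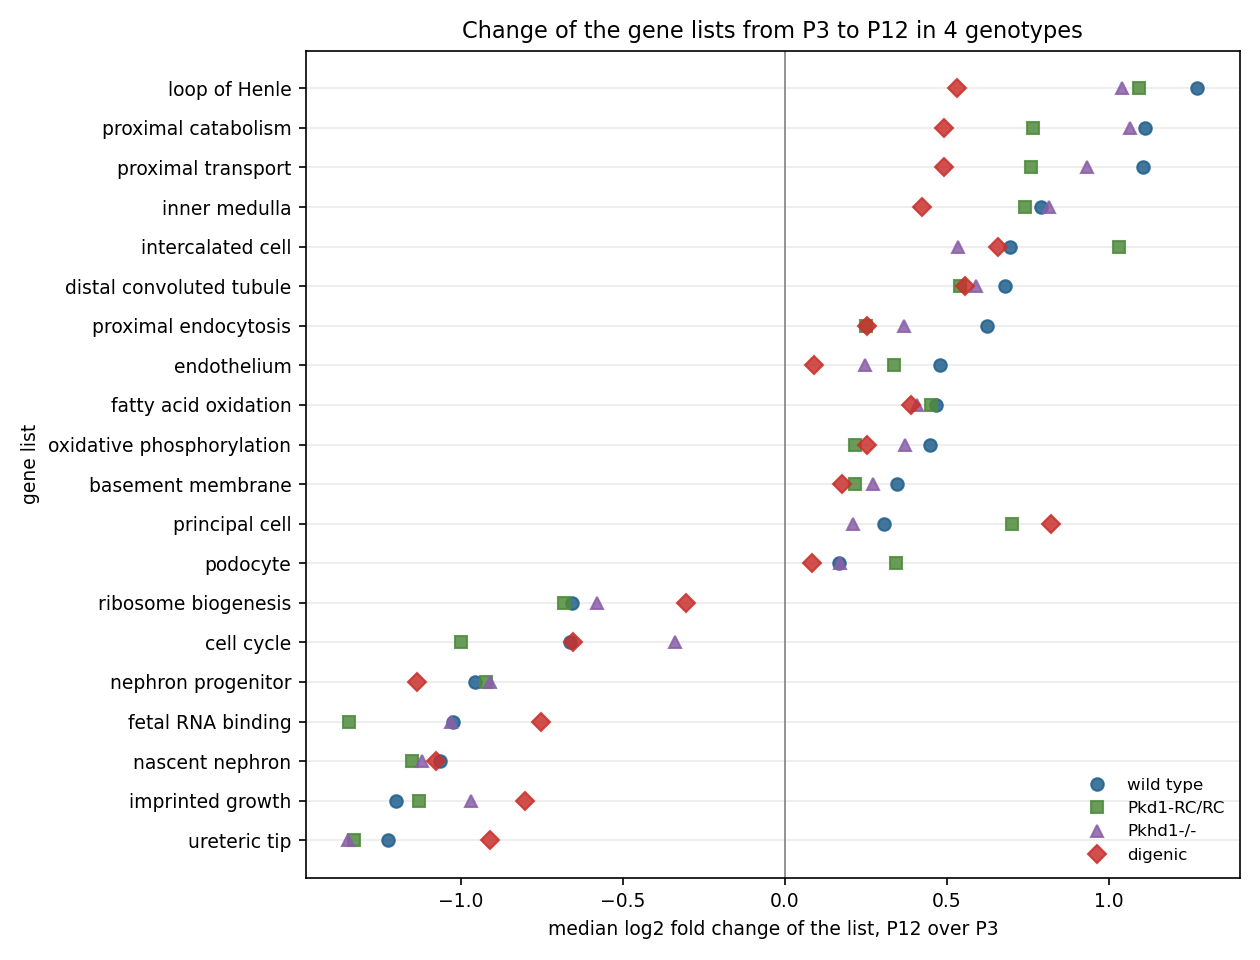
Median log2 fold change from P3 to P12 of 20 gene lists in kidneys of wild-type, digenic, Pkd1-RC/RC and Pkhd1-/- mice, 1 symbol per genotype. The loop of Henle list is at 1.27 in wild type and 0.53 in digenic kidneys, proximal transport at 1.11 and 0.49, and the principal cell list at 0.31 and 0.82.

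Tested as a difference of changes, the wild-type maturation differed from that of Pkhd1-/- kidneys at 0 genes (0.0%) and from that of Pkd1-RC/RC kidneys at 2 (0.0111%) (quasi-likelihood test of edgeR, Benjamini-Hochberg adjustment). At an unadjusted p under 0.05 these counts were 146 and 559, and DESeq2 gave 2 and 11. Both unadjusted counts lie below a share of 0.05 of the 18049 genes, which would pass on average with no difference. The low counts therefore do not show that the changes were equal. Against digenic kidneys 420 genes (2.33%) differed, 242 with a more positive and 178 with a more negative change in digenic kidneys. These comparisons share the wild-type libraries. Of the 242, 163 were genes that fell in wild type, none had risen and 79 had not been called, and of the 178, 153 were genes that rose, 2 had fallen and 23 had not been called. The same wild-type change enters both the difference and the call. This split is therefore partly fixed in advance, and it is given as a description only. The count was 145 without wild-type P12 replicate 3, 244 without P3 replicate 1, 261 without P3 replicate 2 and 267 without P12 replicate 1. It was 271 without the 2 libraries whose header differs from the label. By the column headers the digenic P3 libraries are all female and the digenic P12 libraries are of both sexes. With the header's sex as a covariate the count was 335.

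Among the lists above, members with a tested difference from digenic kidneys were few. Slc5a2 had a mean of 58.3 ± 19.8 (SD, n = 3) CPM at P3 and 50.1 ± 18.7 CPM at P12 in digenic kidneys, against the wild-type rise from 101 ± 6.57 to 414 ± 39.4 CPM (difference of log2 changes -2.26 ± 0.347, SE, edgeR adjusted p = 0.000492). Egf went from 10.0 ± 2.85 to 38.9 ± 10.0 CPM there, against 13.7 ± 6.78 to 368 ± 138 CPM in wild type (-2.79 ± 0.463, edgeR adjusted p = 0.0011). The P12 means of both genes in digenic kidneys lay below those of wild type. Gfra1 (1.28) and Etv4 (1.44) of the ureteric tip and Uncx (1.34) of the progenitor list had more positive changes in digenic kidneys, while Itga8 (-0.98) of that list had a more negative change. More positive changes were also those of the principal cell genes Aqp3 (1.24), Gata3 (0.89) and Scnn1b (0.82), and none of these last 3 rose in wild type. For Umod, with means of 549.8 and 1125 CPM in digenic kidneys, the difference of -0.82 ± 0.338 did not pass the test (edgeR adjusted p = 0.22). The lists with the most members among the 420 genes were those of macrophages (5 of 14, C1qa, C1qb, C1qc, Cd68 and Tyrobp) and of tubular injury (5 of 15, Clu, Krt18, Krt19, Lcn2 and Timp1), all with more positive changes in digenic kidneys. C1qa, a complement gene of macrophages, went from 32.1 ± 6.13 to 92.0 ± 46.0 CPM (SD, n = 3) in digenic kidneys, and the part of such cells in the differences above was not tested.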

How the data were processed

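The data are paired-end RNA-seq libraries (150 bases per read) of RNA purified from flash-frozen whole kidneys with a Qiagen RNeasy kit, per the labels' protocols. The authors aligned reads to mm10 and counted them per gene before they deposited the raw counts: the submitters' processing notes name TopHat2, Bowtie, featureCounts and edgeR, and the series' design text names MAP-RSeq 2.1.0. Strandedness and gene annotation are not stated there, so reads of overlapping, antisense or near-identical genes cannot be told apart. In the deposited table of 18049 genes no gene had a mean count under 8.75 over all libraries, so low genes may have been removed before deposit. Its 36 columns of normalized values were not used. Gene positions are those of GENCODE M21, which 17864 genes (99.0%) matched by identifier.

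Groups came from the sample labels and columns were matched to samples by the number in the title. Raw counts of all 36 libraries (51411240 to 80789299 in total per library) were fitted in edgeR 4.0.16 (R 4.3.3, limma 3.58.1) with 12 groups of genotype and age, TMM scaling, the default filter on low counts, which removed no gene, and robust quasi-likelihood dispersion (24 residual degrees of freedom). All groups shared 1 estimate of the spread. P-values were adjusted by Benjamini-Hochberg over all genes of a contrast, and a gene was called at an adjusted p under 0.05. Differences of changes between genotypes are contrasts of the same fit. Standard errors of log2 changes were derived from the test and not fitted. Each is the absolute log2 change divided by the square root of the F statistic. CPM values are scaled by the TMM factors, and RPKM values are CPM per kilobase of the deposited gene length. Ratios of genes with few counts carry exact 95% counting intervals. On simulated counts of 18049 genes the wild-type comparison recovered 31.3% of 1.5-fold, 67.2% of 2-fold and 89.4% of 4-fold changes, with 4 false calls among 17849 unchanged genes. Only 200 genes were changed there, far fewer than were called in the data. The adjusted threshold depends on that share, so these rates do not carry over to the real comparison. No replicate pair agreed within sampling noise (chi-square per gene 23.1 to 136).

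The comparison and the 44 gene lists were chosen with earlier results of these data known. Genes named are (a) the 12 largest rises and falls of called genes that have an official symbol, average 3 or more in log2 CPM and do not overlap between the ages, sex-linked genes left out, (b) up to 4 members of each list with the smallest adjusted p in its main direction and up to 2 of the other direction, (c) Pkd1, Pkd2 and Pkhd1, (d) the 3 largest positive and negative differences of each genotype contrast where log2 CPM averages 0 or more, (e) the 5 nuclear genes of highest RPKM, and other list members whose role is described. RefSeq promoter windows (GRCm38.p6) were found for 11894 of 18013 gene symbols (66.0%). Alternatives were DESeq2 1.42.0, other scalings, filters and covariates, a replicate block and leaving out libraries.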

Additional observations from a re-analysis of the deposited data

Results flagged for a closer look

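The change from P3 to P12 differed between Pkd1-RC/RC and wild-type kidneys at 2 genes by the tested difference of changes. Padi2, an enzyme that converts arginine to citrulline in proteins, fell in wild type from 32.1, 33.4 and 27.9 CPM to 6.15, 6.76 and 5.43 CPM and in Pkd1-RC/RC from a mean of 25.8 ± 1.48 (SD, n = 3) to 14.9 ± 2.21 CPM, a difference of 1.56 ± 0.271 (SE, log2, edgeR adjusted p = 0.047). Stbd1, a glycogen-binding protein, was at 0.04 in wild type and went from 25.4 ± 2.96 to 10.3 ± 1.98 CPM in Pkd1-RC/RC (-1.34 ± 0.241, edgeR adjusted p = 0.047). Both calls were lost in each of the 6 fits without 1 wild-type library, with adjusted p from 0.0582 to 0.206 for Padi2.

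Between digenic and wild-type kidneys 420 genes differed in their change. The largest positive differences were those of S100a8 (4.04 ± 0.667), Lcn2 (3.69 ± 0.426) and S100a9 (3.69 ± 0.714), genes of neutrophils and, for Lcn2, of injured tubules. In digenic kidneys Lcn2 went from 13.2 ± 3.06 to 258 ± 203 CPM, S100a8 from 3.01 ± 1.01 to 21.3 ± 15.7 CPM and S100a9 from 3.55 to 23.2 ± 18.3 CPM, so that the digenic P12 libraries spread widely. The header of digenic P12 replicate 1 gives its age as P3. The 3 calls held in each of the 6 fits without 1 wild-type library.

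The largest negative differences were those of the nuclear noncoding RNAs Neat1 (-3.49 ± 0.889), Snhg11 (-3.53 ± 0.963) and Firre (-3.42 ± 0.909), each lost in 4 of the 6 fits without 1 wild-type library. By the column headers all 3 digenic P3 libraries are female and the digenic P12 libraries are 2 male and 1 female, while each wild-type group holds 2 males and 1 female. The calls of Firre and Snhg11 were also lost with the header's sex or the Xist level as a covariate and without the 2 libraries whose header differs from the label. Neat1 went from 53.7 ± 55.2 to 20.1 CPM in digenic kidneys, where the spread at P3 was as large as the mean.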

How the results depend on the processing

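For WT P12 against P3 the number of genes that differed was 6413 and lay between 4806 and 5997 without any 1 library. It was 6693 with DESeq2, 5823 when only the 6 libraries were fitted and 493 when edgeR tested against a 2-fold change, which asks for a larger change. With the replicate number as a replicate block in the fit of 6 libraries it was 8167. The numbers were not used as pairs: deviations of same-numbered libraries correlated at 0.267, 0.219 and 0.0295, and P3 replicate 3 correlated best with P12 replicate 1.

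For Pkd1-RC/RC the 2 genes became 11 with DESeq2, 4 at a mean log2 CPM of at least 1, 1 with the Xist level as a covariate, 0 with upper quartile scaling, 0 without the 2 libraries whose header differs from the label, and 0 to 1 without any 1 wild-type library. For Pkhd1-/- DESeq2 gave 2 in place of 0. For digenic kidneys the 420 genes became 738 with DESeq2, 353 with the Xist level as a covariate and 145 to 415 without any 1 wild-type library. They became 335 with the header's sex as a covariate and 271 without those 2 libraries, settings chosen after seeing the data. The cause was not tested. The median of 2 lists reversed: lymphocyte genes at -0.63 with the minimum log2 CPM of 1, and tubular injury genes at 0.0092 without P3 replicate 2 (-0.39 to 0.0092 over the libraries left out). Other list medians were the same within the spread of libraries in 749 comparisons with an alternative and moved in 41, and named genes kept their side of the threshold in 3434, lost a call in 283 and gained one in 4. Depth limits only genes of a few counts, such as Fgf8 at P12.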

Other observations

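The genes ranked highest by level per kilobase at P3 or P12, mitochondrial genes left out, were Gm26377, AY036118, Yam1, Gm23935, Gm28437 and Kap. This measure divides by gene length, so short genes can rank high on few reads. Mitochondrial genes held 0.0% of the counts of each wild-type P3 and P12 library. Reads of near-identical sequences elsewhere cannot be told apart, so the rank may not reflect RNA of these genes alone. Kap, an androgen-regulated protein of the proximal tubule, stood at 645, 796 and 970 CPM at P3 and at 4066, 5327 and 5919 CPM at P12 (2.67, log2, edgeR adjusted p = 2.93e-06), a mean of 1321 and then 8395 RPKM. AY036118 had 5931, 12410 and 7151 CPM in the P12 libraries against 10900 to 12140 at P3, with P12 replicate 2 apart from the other two.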
